A study of Mus musculus with 35 samples.

Results

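The hair follicle signals and transcription factors Shh, Gli1, Ptch1, Lgr5, Lef1, Sox9, Msx2, Hoxc13, Foxn1 and Dlx3 were followed through bulk RNA-seq of mouse skin wounds. These 10 genes were chosen by symbol, were each found in both deposited tables of counts, and stand among 22830 gene symbols in each table. The study asked how wounds heal in a mouse model of classic Ehlers-Danlos syndrome, in which fibroblasts lose type V collagen. Male and female animals of 8 to 12 weeks carried floxed Col5a1 alleles, and all received tamoxifen, which was continued for 5 days after wounding. In Col5a1CKO animals a Col1a2CreERT transgene, active in Col1a2-expressing cells such as fibroblasts, deletes Col5a1, and their Cre-negative littermates are called WT. Keratinocytes, from which most of a hair follicle is built, are not the cells in which this Cre is driven. RNA came from a 6 mm punch biopsy of the middle of the wound or scar. The first table covers a time course and a cell transfer. From day 14 it has wounds of 7 WT and 7 Col5a1CKO samples, and 3 Col5a1CKO samples whose wounds were injected with WT skin fibroblasts on day 3. Its day 19 samples number 3 of each genotype. Legends of the study list 7 WT and 7 Col5a1CKO samples of day 14 as given vehicle, and its control for fibroblast injection was PBS. The sample titles of these wounds name no vehicle, and they are called wounds without fibroblasts, or none, below. The cilengitide table has 4 samples in each of its 3 groups, namely vehicle-treated WT, vehicle-treated Col5a1CKO and cilengitide-treated Col5a1CKO wounds, placed at day 14 by the study's design. Cilengitide, an inhibitor of alpha v integrins, was given at 20 mg/kg. The record lists a WT fibroblast treatment for the day 19 Col5a1CKO wounds, whereas titles place that treatment at day 14, and the titles were followed.

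A hair follicle grows from a plug of epidermal cells that exchanges signals with a cluster of dermal cells, the dermal papilla. Wnt signals, read through Lef1, start the plug, and Sonic hedgehog from the plug and later from the hair matrix binds the receptor Ptch1 and raises Gli1 and Ptch1 itself. Stem cells marked by Lgr5 and Sox9 feed the lower follicle, and the matrix cells above the papilla use Msx2, Hoxc13, Foxn1 and Dlx3 as they turn into hair shaft and inner root sheath. In bulk tissue, fewer cells of a type and less RNA per cell cannot be told apart.

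Levels are given as CPM, counts scaled to library size with TMM factors. A gene was called where it changed at least 2-fold and edgeR's quasi-likelihood test left a Benjamini-Hochberg adjusted p, over all genes, under 0.05. Summed counts per sample were 15043531 to 35700325 (time course and fibroblasts) and 51211600 to 68266760 (cilengitide). By the balance of GC-rich and GC-poor genes the libraries of the first table split into a lower and an upper set, 1.58 apart in log2 where the next widest step was 0.35. Day 14 WT wounds a to d and day 14 Col5a1CKO wounds a to e make up the lower set. In the upper set the day 14 WT wounds had RNA of Y-linked genes and the day 14 Col5a1CKO wounds, with or without fibroblasts, had Xist, so sex and genotype cannot be told apart there. Col5a1 itself, the targeted gene, spanned 345 to 2404 CPM (WT) and 171 to 667 CPM (Col5a1CKO) at day 14, 514 to 5409 and 614 to 1089 CPM at day 19, and 449 to 2627 and 256 to 1321 CPM with vehicle. The genotypes overlapped each time, and counts over the whole gene do not show the loss of single exons. Krt14, a keratin of basal epidermis, was found in every wound but spanned 9.41 to 35696 CPM. Replicates are separate biological samples per the study's methods, and the labels do not give the animal of each.

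On build NCBI37/mm9 of the mouse genome the members lie apart. Shh is on chromosome 5 (28783355 to 28793641, minus strand), Lef1 on chromosome 3 (130813389 to 130927274, plus) and Hoxc13 on chromosome 15 (102751534 to 102759245, plus). Chromosome 10 holds Lgr5 (114887367 to 115024836, minus) and Gli1 (126766945 to 126778645, minus), and chromosome 13 holds Msx2 (53562250 to 53568443, minus) and Ptch1 (63610261 to 63674474, minus). Chromosome 11 holds Foxn1 (78171079 to 78200060, minus), Dlx3 (94981403 to 94986610, plus) and Sox9 (112643538 to 112649074, plus). Counts were taken on exons of RefSeq transcripts, and each member has 1 row.

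RefSeq promoters on build GRCm38.p6 were at hand for Lef1, Ptch1, Msx2 and Foxn1. They are shown because Lef1 and Ptch1 belong to the Wnt and hedgehog pathways whose factors read short DNA motifs, and no promoter was at hand for the other members. The 250 bases before the start are given 5′ to 3′ on the gene's strand, for Lef1 before its most upstream and its most downstream start, with the motifs found in capitals.
Lef1, upstream start, chr3:131110047-131110296, plus strand: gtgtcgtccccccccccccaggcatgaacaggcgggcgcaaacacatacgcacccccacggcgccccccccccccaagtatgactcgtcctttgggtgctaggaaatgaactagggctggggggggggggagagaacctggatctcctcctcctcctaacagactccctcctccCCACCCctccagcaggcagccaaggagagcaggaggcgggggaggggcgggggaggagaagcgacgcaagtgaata
Lef1, downstream start, chr3:131156044-131156293, plus strand: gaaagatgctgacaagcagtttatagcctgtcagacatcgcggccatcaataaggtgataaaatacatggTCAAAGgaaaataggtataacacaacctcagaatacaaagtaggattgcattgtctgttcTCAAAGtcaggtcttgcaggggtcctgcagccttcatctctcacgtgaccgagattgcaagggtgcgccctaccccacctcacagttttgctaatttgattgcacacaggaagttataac
Ptch1, chr13:63565736-63565985, minus strand: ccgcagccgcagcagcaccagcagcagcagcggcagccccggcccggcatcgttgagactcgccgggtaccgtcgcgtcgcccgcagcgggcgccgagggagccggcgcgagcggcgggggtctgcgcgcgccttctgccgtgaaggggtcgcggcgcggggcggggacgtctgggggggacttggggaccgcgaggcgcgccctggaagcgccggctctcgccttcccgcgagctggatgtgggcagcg
Msx2, chr13:53472781-53473030, minus strand: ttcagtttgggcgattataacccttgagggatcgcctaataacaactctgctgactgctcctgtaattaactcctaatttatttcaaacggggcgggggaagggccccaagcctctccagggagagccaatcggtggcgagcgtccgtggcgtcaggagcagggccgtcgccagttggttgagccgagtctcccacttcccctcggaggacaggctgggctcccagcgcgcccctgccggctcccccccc
Foxn1, chr11:78386609-78386858, minus strand: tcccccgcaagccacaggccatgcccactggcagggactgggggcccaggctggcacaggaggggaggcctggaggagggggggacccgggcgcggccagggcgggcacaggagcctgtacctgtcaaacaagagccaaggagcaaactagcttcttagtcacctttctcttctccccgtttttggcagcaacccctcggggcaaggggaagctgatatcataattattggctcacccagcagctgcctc
The motifs searched on both strands were the GLI site GACCACCCA, its core CCACCC, the LEF/TCF core CTTTGA and the homeodomain core TAATTG, and the first of them contains the second. They were found in 0.225%, 28.1%, 13.8% and 7.17% of 32851 RefSeq promoters of the same length. The upstream Lef1 promoter held CCACCC from -76 to -71 relative to its start. The downstream one held the LEF/TCF core on the minus strand, read as TCAAAG, from -180 to -175 and from -120 to -115. The other 3 promoters shown held none of these letters, which says nothing about the factors.

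In the first table, 8 members reached their highest level in a WT wound of day 19. Foxn1 and Sox9 did so in WT wound f of day 14, with 67.5 and 56.4 CPM. Ordered by median level per kb of transcript, the WT wounds of day 19 had Dlx3 at 46.6 CPM per kb, Msx2 at 20.9 and Hoxc13 at 20.6, then Lef1 at 10.4, Sox9 at 9.92, Gli1 at 8.07 and Foxn1 at 7.76, and last Lgr5 at 5.31, Ptch1 at 5.10 and Shh at 2.88. Most neighbours in this order overlapped across the 3 wounds. In the Col5a1CKO wounds of day 19 the order was another, led by Sox9 at 4.12 CPM per kb and Ptch1 at 2.31, with Hoxc13 at 0.395, Lef1 at 0.193 and Shh at 0.020 at its end.

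The comparison of genotypes at day 19 asks what the wounds express once WT wounds are further healed. Every member was lower in the Col5a1CKO wounds, and in all 10 the highest Col5a1CKO wound lay below the lowest WT wound. Groups did not overlap in that direction for 18.5% of the 15135 genes tested. The median log2 fold change of the members was -4.16, against -0.01 over all genes tested. No member was called by edgeR (0.0% of all genes were called lower), with adjusted p-values of 0.11 to 0.173, while each of the 10 had an unadjusted p under 0.05, as did 12.3% of all genes in that direction.

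Shh, the secreted hedgehog ligand, was 7.67, 36.9 and 2.55 CPM in the WT wounds a, b and c and 0.053, 0.229 and 0 CPM in the Col5a1CKO wounds. Behind these stand 1217 counts in WT and 6 counts in Col5a1CKO wounds, so the ligand was nearly undetected in Col5a1CKO wounds. Its fitted log2 fold change was -7.14 (SE 1.45, adjusted p = 0.112). Gli1, a transcription factor that hedgehog signalling induces, was 29.5, 99.2 and 14.4 CPM in WT and 2.21, 4.81 and 5.16 CPM in Col5a1CKO wounds, a log2 fold change of -3.44 (SE 0.77, adjusted p = 0.118). Ptch1, receptor and target of the same pathway, was 22.0, 59.2 and 13.5 CPM in WT and 9.70, 11.9 and 9.93 CPM in Col5a1CKO wounds. The gap between the groups was narrow for Ptch1, whose log2 fold change was -1.48 (SE 0.51, adjusted p = 0.173). Of the other 25 hedgehog pathway genes listed, 23 were tested, none was called, and their median log2 fold change was 0.17.

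Lgr5, a receptor for R-spondins that strengthen Wnt signals, was 22.7, 26.0 and 25.0 CPM in WT and 5.64, 4.58 and 7.37 CPM in Col5a1CKO wounds. It was the steadiest member in WT wounds, where the highest exceeded the lowest by 1.14-fold, against 17.5-fold for Hoxc13. Its log2 fold change of -2.001 had the smallest error of the members (SE 0.22, adjusted p = 0.11). Lef1, the DNA-binding partner of beta-catenin in Wnt responses, was 25.6, 102 and 7.45 CPM in WT and 0.474, 1.01 and 0.434 CPM in Col5a1CKO wounds, a log2 fold change of -5.99 (SE 1.11, adjusted p = 0.11). Sox9, needed for follicle stem cells and the outer root sheath, was 41.1, 53.6 and 24.3 CPM against 17.5, 17.1 and 16.3 CPM. It had the smallest change of the 10, with a log2 fold change of -1.14 (SE 0.27, adjusted p = 0.124). Of 36 tested genes of other Wnt signals and R-spondin receptors, 0 were called, 22 had an unadjusted p under 0.05, and the median log2 fold change was -0.70.

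Msx2, a homeobox factor of the hair matrix, was 45.2, 147 and 10.9 CPM in WT and 1.79, 1.60 and 1.93 CPM in Col5a1CKO wounds, a log2 fold change of -5.13 (SE 0.97, adjusted p = 0.11). Hoxc13, which drives hair keratin genes, was 50.1, 152 and 8.72 CPM against 1.05, 0.961 and 0.578 CPM, with -6.22 (SE 1.12, adjusted p = 0.11). Foxn1, the gene mutated in nude mice, was 19.4, 50.1 and 5.39 CPM against 4.85, 2.29 and 1.98 CPM, with -2.92 (SE 0.83, adjusted p = 0.141). Its lowest WT wound was close to the highest Col5a1CKO wound. Dlx3, a homeobox factor of matrix and differentiating epidermis, was 121, 361 and 33.5 CPM against 4.06, 3.94 and 8.10 CPM, with -4.89 (SE 0.92, adjusted p = 0.11).

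The WT wounds of day 19 differed much among themselves. Wound b was the highest in all 10 members and wound c the lowest in 9, Lgr5 excepted. With WT wound c left out, edgeR called 9 members lower, Ptch1 being the exception, against 3.88% of all genes. DESeq2 on all 6 wounds also called 9 lower, again without Ptch1 (adjusted p = 0.0515), against 4.89% of all genes. WT wound a had Y-linked RNA and the other 5 wounds Xist.

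Basal keratinocytes were present at day 19 in both genotypes. The summed level of 12 basal keratinocyte genes was 8428, 17166 and 7397 CPM in the WT and 10434, 5110 and 8217 CPM in the Col5a1CKO wounds, so the groups overlapped. Gene by gene, 8 of the 12 were lower and 4 higher in Col5a1CKO wounds. Their median log2 fold change was -0.40, 5 had an unadjusted p under 0.05 and 0 were called. Per 1000 CPM of these genes, 8 members did not overlap between the genotypes, the exceptions being Ptch1 and Sox9, and neither did 4.5% of the genes tested in that direction. Hoxc13 spanned 1.18 to 8.88 CPM per 1000 basal CPM (WT) and 0.070 to 0.188 (Col5a1CKO), and Shh spanned 0.345 to 2.15 and 0 to 0.045. With the basal keratinocyte level as a covariate, 0 members were called, where 1 of 15135 genes was called lower, and the log2 fold change of Hoxc13 was -4.81 (SE 0.74). Genes of the hair shaft and inner root sheath, the products of the matrix, together made up 798 to 13672 CPM of the WT and 97.3 to 163 CPM of the Col5a1CKO wounds. Each of the 39 was lower in Col5a1CKO wounds (median log2 fold change -9.30), 37 with an unadjusted p under 0.05, and 0 were called by edgeR. Pigment cell genes, of which none of 10 was at 0 in a whole group, made up 156 to 1690 CPM of the WT and 51.7 to 67.2 CPM of the Col5a1CKO wounds. Dermal papilla genes summed to 392 to 610 CPM (WT) and 789 to 817 CPM (Col5a1CKO), a sum weighted to the most abundant genes. Gene by gene, 7 of the 15 tested were higher and 8 lower in Col5a1CKO wounds. Their median log2 fold change was -0.57, and 5 had an unadjusted p under 0.05. Fibroblasts outside follicles also make several of these genes, such as Vcan and Fgf7. Suprabasal keratinocyte genes summed to 10455 to 18542 CPM (WT) and 4108 to 18162 CPM (Col5a1CKO), fibroblast genes to 12487 to 119185 and 113348 to 154456 CPM, myeloid genes to 957 to 5956 and 1117 to 5268 CPM, and endothelial genes to 382 to 753 and 839 to 1331 CPM. None of these 4 lists had a called gene, but edgeR called only 3 of 15135 genes higher and 0 lower. An unadjusted p under 0.05 was found for 5 of 8 endothelial genes, all 8 being higher in Col5a1CKO wounds. It was found for 0 genes of the other lists among these 4. The part of these cell types in the members' difference was not tested.

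**Figure D1:**
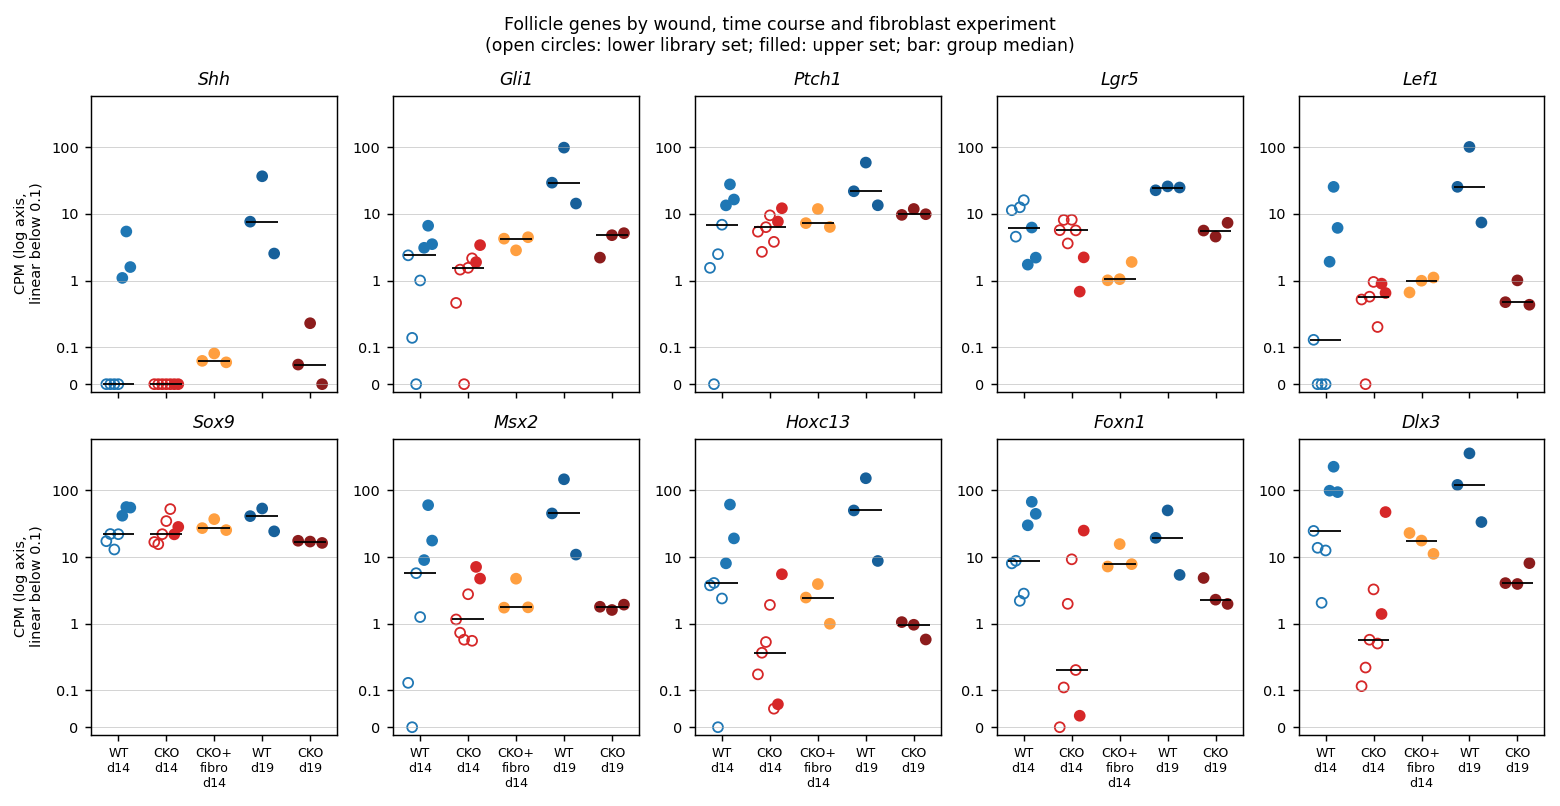
Level of each follicle gene (CPM, log axis that is linear below 0.1) in each wound of the time course and the fibroblast experiment. Open circles are libraries of the lower set, filled symbols the upper set, and bars the group medians. The day 19 WT wounds lie above all day 19 Col5a1CKO wounds in each panel, and Shh is at 0 in all 7 Col5a1CKO wounds of day 14.

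At day 14 the genotypes overlapped in all 10 members, and no member was called. Of all 14367 genes tested 2.71% were called lower. The 9 members tested had negative log2 fold changes with a median of -2.11 (all genes -0.03), of which 2 had an unadjusted p under 0.05, and 13.2% of all genes had one in that direction. Shh had too few counts to be tested by edgeR. It was 0 CPM in WT wounds a to d and 1.10, 5.46 and 1.60 CPM in WT wounds e, f and g. In the 7 Col5a1CKO wounds Shh had 0 of 170514593 counts. Within the upper set, a limit of 3 counts in 61836432 for the Col5a1CKO wounds f and g stands at 0.0485 CPM, so the mean of the 3 WT wounds was at least 56.0-fold higher, and at least 27.8-fold higher without WT wound f. This bound covers counting error only.

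The hedgehog target Gli1 had a lowest, median and highest level of 0, 2.40 and 6.66 CPM in WT and 0, 1.56 and 3.41 CPM in Col5a1CKO wounds of day 14. Ptch1 was 0, 6.90 and 27.9 CPM against 2.70, 6.34 and 12.2 CPM. Neither passed the test, with log2 fold changes of -0.59 (SE 1.02) and -0.49 (SE 0.82). For Lgr5 the levels were 1.74, 6.26 and 16.1 CPM against 0.683, 5.67 and 8.19 CPM, and for Sox9 13.0, 22.1 and 56.4 CPM against 15.6, 22.0 and 52.5 CPM. The ranges of these 2 genes overlapped widely, with log2 fold changes of -0.70 (SE 0.59) and -0.23 (SE 0.37). Lef1 was 0 to 0.129 CPM in WT wounds a to d, but 1.92, 25.6 and 6.19 CPM in WT wounds e, f and g, and 0 to 0.955 CPM in the Col5a1CKO wounds, with a log2 fold change of -3.10 (SE 1.48, adjusted p = 0.191).

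Hoxc13, Lef1 and Dlx3 had the largest fitted differences of the members at day 14. Hoxc13 was 0, 4.08 and 61.4 CPM (lowest, median and highest) in WT and 0.050, 0.365 and 5.52 CPM in Col5a1CKO wounds, a log2 fold change of -3.45 (SE 1.28, adjusted p = 0.0965). Dlx3 was 2.05, 24.7 and 227 CPM against 0.115, 0.573 and 47.3 CPM, with -3.07 (SE 1.34, adjusted p = 0.155). Msx2 was 0, 5.72 and 60.1 CPM against 0.552, 1.16 and 7.11 CPM, and Foxn1 2.20, 8.79 and 67.5 CPM against 0, 0.201 and 24.9 CPM, with log2 fold changes of -2.34 (SE 1.18, adjusted p = 0.213) and -2.11 (SE 1.32, adjusted p = 0.316). Of the hair shaft and inner root sheath genes, 23 of 32 tested were called lower and none higher, with a median log2 fold change of -5.74. Among them were Krt71 of the inner root sheath, spanning 5.84 to 3312 CPM (WT) and 1.09 to 22.5 CPM (Col5a1CKO), and Krtap11-1 of the hair shaft. Of the 30 other follicle transcription factors tested, 21 had negative and 9 positive log2 fold changes, with a median of -1.46. An unadjusted p under 0.05 was found for 10, and 0 were called lower. The 1 called higher was Runx1, spanning 39.2 to 71.8 CPM (WT) and 78.1 to 183 CPM (Col5a1CKO), where 800 of 14367 genes were called higher.

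Library set and keratinocyte content both moved with these values. Among WT wounds of the upper set, wound f was the highest in all 10 members, and in every member but Lgr5 the WT wounds e to g exceeded all of the WT wounds a to d. Dlx3 was called lower with the library set as a covariate (log2 fold change -3.33, SE 0.88, adjusted p = 0.0177) and in the lower set alone (-3.84, SE 1.05, adjusted p = 0.0442), where 3.88% and 2.92% of all genes were called lower. In the upper set alone 0 members were called, where 63 of 15312 genes were called lower. In the lower set Dlx3 was 24.7, 13.8, 2.05 and 12.5 CPM in the WT wounds and 0.115 to 3.27 CPM in the Col5a1CKO wounds. DESeq2 called Shh, Hoxc13 and Dlx3 lower, against 5.24% of all genes. Leaving out Col5a1CKO wound g gave calls for Hoxc13 and Dlx3, and leaving out WT wound c a call for Hoxc13, where 6.83% and 3.17% of all genes were called lower. The summed basal keratinocyte genes were 15918 to 64551 CPM in the WT wounds, but 491 to 3548 CPM in Col5a1CKO wounds a, b, c, e and f, and 26928 and 33829 CPM in wounds d and g. In the wounds d and g, with basal keratinocyte RNA at the WT level, Dlx3 was 3.27 and 47.3 CPM, Foxn1 9.24 and 24.9 CPM, Hoxc13 1.91 and 5.52 CPM, and Shh 0 CPM. Wound d is of the lower set, where WT wounds had Dlx3 of 2.05 to 24.7 CPM and Foxn1 of 2.20 to 8.79 CPM. Their Hoxc13 was 0 to 4.08 CPM and their Shh 0 CPM. Wound g is of the upper set, where WT wounds had Dlx3 of 94.4 to 227 CPM and Foxn1 of 29.97 to 67.5 CPM. In those, Hoxc13 was 8.04 to 61.4 CPM and Shh 1.10 to 5.46 CPM. Of the other cell types at day 14, 5 of 10 myeloid, 3 of 9 fibroblast and 4 of 8 endothelial genes were called higher in Col5a1CKO wounds, and 1 of 11 suprabasal keratinocyte genes lower. Their summed levels were 3497 to 24095 CPM against 1740 to 12170 CPM in WT for myeloid, 32315 to 132901 against 8630 to 85600 CPM for fibroblast, 307.5 to 763 against 98.1 to 317 CPM for endothelial and 113 to 49027 against 26085 to 152787 CPM for suprabasal genes, and their part in the difference was not tested. The part of keratinocyte content in the difference was not tested apart from a covariate, with which Dlx3 had a log2 fold change of -1.82 (SE 1.12) and no member was called. With that covariate only 8 of 14367 genes were called lower, so the lack of a call says little about the members.

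With WT fibroblasts injected into Col5a1CKO wounds, none of the 9 members tested was called at day 14 against Col5a1CKO wounds without fibroblasts, where 0 of 15659 genes were called by edgeR in either direction (0.0%), 2001 had an unadjusted p under 0.05, and DESeq2 called 9 genes higher and 10 lower but no member. Shh had 2, 3 and 2 counts in the 3 wounds (0.063, 0.083 and 0.059 CPM), and was the one member that did not overlap with Col5a1CKO wounds. As Shh was at 0 in all of those, any count in each fibroblast wound sufficed for this. Shh was not among the genes tested, of which 0.326% did not overlap in that direction. Col5a1CKO wounds a to e are of the lower set, where Shh was 0 in the WT wounds as well. Dlx3 was 22.9, 17.7 and 11.2 CPM, within the range of both other day 14 groups, with a log2 fold change of 1.17 (SE 1.58) against Col5a1CKO wounds. Foxn1 was 7.20, 15.6 and 7.82 CPM and Hoxc13 2.46, 3.93 and 0.995 CPM, with log2 fold changes of 0.96 (SE 1.69) and 0.99 (SE 1.20). Gli1 was 4.26, 2.85 and 4.48 CPM, Ptch1 7.29, 11.9 and 6.38 CPM, and Sox9 27.2, 37.1 and 25.4 CPM. Lef1 was 0.663, 0.995 and 1.11 CPM and Msx2 1.74, 4.73 and 1.76 CPM. Lgr5, at 1.01, 1.05 and 1.90 CPM, was the one member with an unadjusted p under 0.05, lower with fibroblasts (log2 fold change -1.88, SE 0.70, adjusted p = 0.365). Of all genes 11.5% had such a p in that direction. The fibroblast libraries are all of the upper set, in which Lgr5 of the Col5a1CKO wounds f and g was 0.683 and 2.23 CPM.

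Against WT, 0 of the 10 members were called in the Col5a1CKO wounds with fibroblasts (2.06% of all genes called lower). Within the upper set, where these wounds stand against WT wounds e to g, 7 were called lower, namely Shh, Ptch1, Lef1, Msx2, Hoxc13, Foxn1 and Dlx3, against 11.2% of all genes. There the fibroblast wounds had Xist and the WT wounds Y-linked RNA, so sex and treatment cannot be told apart. Basal keratinocyte genes of the fibroblast wounds summed to 18573, 28515 and 11872 CPM and those of WT wounds e to g to 40049, 29436 and 64551 CPM. Summed hair shaft and inner root sheath genes were 193 to 390 CPM with fibroblasts and 1766 to 17682 CPM in WT wounds e to g. Of this list 5 of 39 genes were called lower against all 7 WT wounds, with a median log2 fold change of -6.95, among them Krtap8-1, Krt26 and Krtap7-1.

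Between day 14 and day 19 of WT wounds all 10 members had positive log2 fold changes, with a median of 2.05. Gli1 was called higher, at a log2 fold change of 4.33 (SE 1.04, adjusted p = 0.0332), and 1.5% of all 15180 genes were. Its call was lost when any of WT wounds a and d of day 14 or a, b and c of day 19 was left out. Gli1 and Lgr5 did not overlap between the days, as 7.46% of genes tested did not in that direction. Shh had a log2 fold change of 3.78 (SE 1.60, adjusted p = 0.18), Lef1 of 3.27 (SE 1.64, adjusted p = 0.258) and Foxn1 of 0.15 (SE 0.97, adjusted p = 0.95). Within the upper set, Gli1 (3.50, SE 0.76, adjusted p = 0.0186) and Lgr5 (2.98, SE 0.52, adjusted p = 0.011) were called, as were 14.2% of all genes. Basal keratinocyte genes went the other way, from 15918 to 64551 CPM at day 14 to 7397 to 17166 CPM at day 19. With their level as a covariate 8 members were called higher, all but Lgr5 and Foxn1, against 7.95% of all genes. That fit includes WT wounds a to d of day 14, which are of the lower set, while all day 19 wounds are of the upper set. Outside the upper-set fit, day and library set therefore cannot be fully told apart. Of the hedgehog pathway genes, 22 were tested and all had positive values, with Evc2 and Ccnd2 called.

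In Col5a1CKO wounds 0 of the 9 members tested were called between the days, by edgeR and by DESeq2 alike, while edgeR called 5.72% of all genes. An unadjusted p under 0.05 was found for no member by edgeR and for 1 by DESeq2. In the upper set alone edgeR gave such a p to 3 of 9 members and to 3630 of 15240 genes, and called 0 genes. The difference between the genotype effects of the days was itself tested. It passed in 0 of 15954 genes by edgeR (938 had an unadjusted p under 0.05) and in 43 by DESeq2, with no member among them. The genotype difference of the members was therefore not shown to differ between day 14 and day 19.

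The cilengitide experiment repeats the day 14 comparison in deeper libraries and adds the integrin inhibitor. Sex was not balanced between its groups. WT wounds 1 and 3 and cilengitide wounds 2 and 3 had Xist, and the other WT and cilengitide wounds had Y-linked RNA. No Col5a1CKO wound with vehicle had Xist, wounds 1, 3 and 4 having Y-linked RNA. The part of sex in the differences below was not tested. With vehicle, 7 members were lower in Col5a1CKO than in WT wounds, namely Shh, Ptch1, Lef1, Sox9, Msx2, Hoxc13 and Dlx3, where 13.4% of 15434 genes were called lower and 17.5% higher. The median log2 fold change was -4.02 (all genes 0.02). Gli1, Lgr5 and Foxn1 did not pass.

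Shh was 0.248, 1.72, 0.323 and 8.53 CPM in the WT wounds 1 to 4 and 0, 0.168, 0 and 0 CPM in the Col5a1CKO wounds, where all 12 counts were of wound 2. It was called with a log2 fold change of -5.80 (SE 1.73, adjusted p = 0.0262). Ptch1 was 14.2, 18.0, 14.0 and 31.8 CPM against 12.5, 11.5, 8.38 and 6.45 CPM, a smaller change of -1.05 (SE 0.34, adjusted p = 0.0352). Gli1 was 1.71, 3.57, 1.01 and 7.53 CPM against 0.786, 4.60, 0.482 and 0.467 CPM. For Gli1, Col5a1CKO wound 2 lay above 3 of the WT wounds, and the log2 fold change was -1.15 (SE 0.95, adjusted p = 0.342). Of 24 other hedgehog pathway genes, 1 was called higher, Foxf1a, and 2 lower, Mycn and Ccnd1.

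Sox9 fell in every Col5a1CKO wound, from 43.8, 46.6, 46.6 and 57.3 CPM to 19.2, 13.2, 9.52 and 10.7 CPM, with the smallest adjusted p of the members (log2 fold change -1.92, SE 0.24, adjusted p = 0.00105). Lef1 was 0.388, 16.0, 2.93 and 38.3 CPM in WT and 0.615, 0.866, 0.438 and 0.534 CPM in Col5a1CKO wounds. It was called (-4.59, SE 1.25, adjusted p = 0.0184) although WT wound 1 lay below all Col5a1CKO wounds. Lgr5 was 9.57, 8.02, 1.82 and 9.46 CPM against 1.80, 5.18, 0.570 and 0.756 CPM, and did not pass (-1.82, SE 0.81, adjusted p = 0.0958). Of 37 other Wnt signal and R-spondin receptor genes 17 were called lower, among them Wnt3 (38.0 to 68.6 CPM in WT, 0 to 5.52 CPM in Col5a1CKO) and the R-spondin receptor Lgr6 (8.48 to 15.5 CPM against 0.133 to 0.657 CPM). Of the same list 4 were called higher, among them the Wnt antagonist Sfrp2.

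Msx2 was 4.16, 32.8, 8.86 and 48.5 CPM in WT and 1.47, 0.643, 1.67 and 1.56 CPM in Col5a1CKO wounds (-4.20, SE 0.82, adjusted p = 0.00509). Hoxc13 was 5.91, 39.6, 8.63 and 63.2 CPM against 0.752, 0, 0.197 and 2.14 CPM (-5.33, SE 1.44, adjusted p = 0.0181). Dlx3 was 57.8, 113, 64.4 and 189 CPM against 0.513, 0.070, 0.153 and 7.07 CPM (-5.84, SE 1.51, adjusted p = 0.0153). Foxn1 was 16.0, 36.8, 19.97 and 43.1 CPM against 1.59, 0.028, 0 and 6.87 CPM, and missed the threshold (-3.84, SE 1.52, adjusted p = 0.0678) although the groups did not overlap. In all, 7 members did not overlap between the groups, as 25.1% of all genes did not in that direction. Of 35 other follicle transcription factors 18 were called lower, among them Sox21, Gata3 and Barx2, and 3 higher, Runx3, Sox18 and Runx1. All 35 hair shaft and inner root sheath genes tested had negative log2 fold changes, and 31 were called lower.

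Keratinocyte RNA was also low in these wounds. Summed basal keratinocyte genes were 31488, 28489, 27612 and 23155 CPM in WT with vehicle and 2944, 376, 656 and 16410 CPM in Col5a1CKO with vehicle, and 3 of the 12 genes were called lower. With that level as a covariate, Dlx3, Shh and Sox9 were called lower, against 8.11% of all genes. Dlx3 per 1000 basal CPM spanned 1.83 to 8.17 (WT) and 0.174 to 0.431 (Col5a1CKO), and was the one member whose ratio did not overlap, as 2.14% of the genes tested did not in that direction. Other cell types differed too. Of 11 suprabasal keratinocyte genes 5 were called lower (summed to 44.5 to 4895 CPM against 49441 to 90309 CPM in WT). Called higher were 9 of 10 myeloid genes (5299 to 53434 against 396 to 2875 CPM), 3 of 9 fibroblast genes (24701 to 117258 against 10214 to 56060 CPM) and 4 of 8 endothelial genes (488 to 1088 against 65.3 to 438 CPM). Their part in the members' difference was not tested. Sox9, Msx2, Hoxc13 and Dlx3 were called whichever wound was left out. The call of Lef1 was lost without Col5a1CKO wound 3, that of Shh without Col5a1CKO wound 1, 3 or 4 or WT wound 4, and that of Ptch1 without Col5a1CKO wound 3 or 4 or WT wound 2 or 4. Without Col5a1CKO wound 2, whose library had neither Xist nor Y-linked RNA, Gli1 and Lgr5 were called as well, against 13.5% of all genes, and without Col5a1CKO wound 4 Foxn1 was (-5.74, adjusted p = 0.0193), against 15.1%. DESeq2 called 9 members, all but Gli1, against 14.1% of all genes.

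Cilengitide raised 2 of the 9 members tested above Col5a1CKO wounds with vehicle, where 6.48% of 15563 genes were called higher. Sox9 was 43.4, 40.6, 36.4 and 32.9 CPM with cilengitide, above each of the vehicle wounds (log2 fold change 1.55, SE 0.23, adjusted p = 0.00609). Msx2 was 3.95, 5.31, 2.25 and 6.75 CPM (1.78, SE 0.43, adjusted p = 0.0223). Dlx3 was 34.6, 19.6, 21.4 and 26.0 CPM (3.72, SE 1.32, adjusted p = 0.0734) and Hoxc13 6.01, 6.46, 4.19 and 7.82 CPM (3.01, SE 1.13, adjusted p = 0.0858). Foxn1 was 13.8, 18.0, 11.4 and 12.6 CPM (2.73, SE 1.42, adjusted p = 0.187). These 5 did not overlap with the vehicle wounds, as 18.1% of genes tested did not in that direction, and the median of the 9 was 1.55 (all genes -0.06).

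Shh, too low for the test, was 0.482, 0.147, 0.126 and 1.04 CPM with cilengitide, from 115 counts against the 12 of the vehicle wounds. Gli1 was 1.25, 1.70, 2.59 and 3.07 CPM (0.45, SE 0.78, adjusted p = 0.702) and Ptch1 9.91, 11.7, 10.9 and 12.2 CPM (0.21, SE 0.21, adjusted p = 0.497). Lgr5 was 2.86, 4.74, 5.95 and 2.48 CPM (0.95, SE 0.69, adjusted p = 0.335) and Lef1 1.43, 0.777, 0.379 and 3.61 CPM (1.34, SE 0.66, adjusted p = 0.168). Of the other Wnt genes 9 of 37 were called higher, among them Fzd10, Lgr6 and Wnt7b, and of the other follicle transcription factors 17 of 36, among them Irx4 and Sox21. Without Col5a1CKO vehicle wound 2, Gli1, Lgr5 and Hoxc13 were also called, and without wound 4, Hoxc13, Foxn1 and Dlx3, where 6.19% and 10.6% of all genes were called higher. The call of Msx2 was lost without cilengitide wound 2, where 5.21% were. DESeq2 called Dlx3 and Hoxc13 besides, against 8.51% of all genes. Basal keratinocyte genes summed to 24240 to 39006 CPM with cilengitide, 2 of the 12 being called higher, and with their level as a covariate 0 members and 0.0% of all genes were called higher. Suprabasal keratinocyte genes summed to 20933 to 50592 CPM with cilengitide, with 5 of 11 called higher, and myeloid genes to 4628 to 9408 CPM, with 5 of 10 called lower. The part of these cells was not tested.

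Against WT wounds with vehicle, cilengitide wounds had overlapping levels of basal keratinocyte genes, with 0 of 12 called lower and 1 higher. Suprabasal keratinocyte genes were called lower in 6 of 11, and 6 of 10 myeloid genes and 1 of 9 fibroblast genes higher. All 10 members had negative log2 fold changes, with a median of -1.56 (all genes -0.01). Dlx3 was called lower (-2.06, SE 0.41, adjusted p = 0.0213), where 3.43% of 15514 genes were. Without cilengitide wound 2, 3 or 4 no gene of the whole table was called lower by edgeR (0.0%), with 5019 to 5262 genes at an unadjusted p under 0.05 in either direction, and the log2 fold change of Dlx3 over all left-out wounds was -2.27 to -1.61. Without WT wound 1 Dlx3, Foxn1, Hoxc13 and Msx2 were called, against 3.93% of all genes. DESeq2 called 6 members lower, against 4.76% of all genes. Dlx3, Ptch1 and Sox9 did not overlap between the groups, as 15.5% of genes did not in that direction. The log2 fold change was -2.27 (SE 0.74, adjusted p = 0.0613) for Hoxc13, -2.38 (SE 0.76, adjusted p = 0.059) for Msx2, -3.24 (SE 1.29, adjusted p = 0.102) for Lef1 and -2.61 (SE 1.25, adjusted p = 0.154) for Shh. It was -1.06 (SE 0.33, adjusted p = 0.055) for Foxn1 and -0.34 (SE 0.13, adjusted p = 0.0868) for Sox9. Hair shaft and inner root sheath genes summed to 543 to 967 CPM with cilengitide and 693 to 14366 CPM in WT, and 18 of 39 were called lower. The comparisons of vehicle and of cilengitide share their control wounds.

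**Figure D2:**
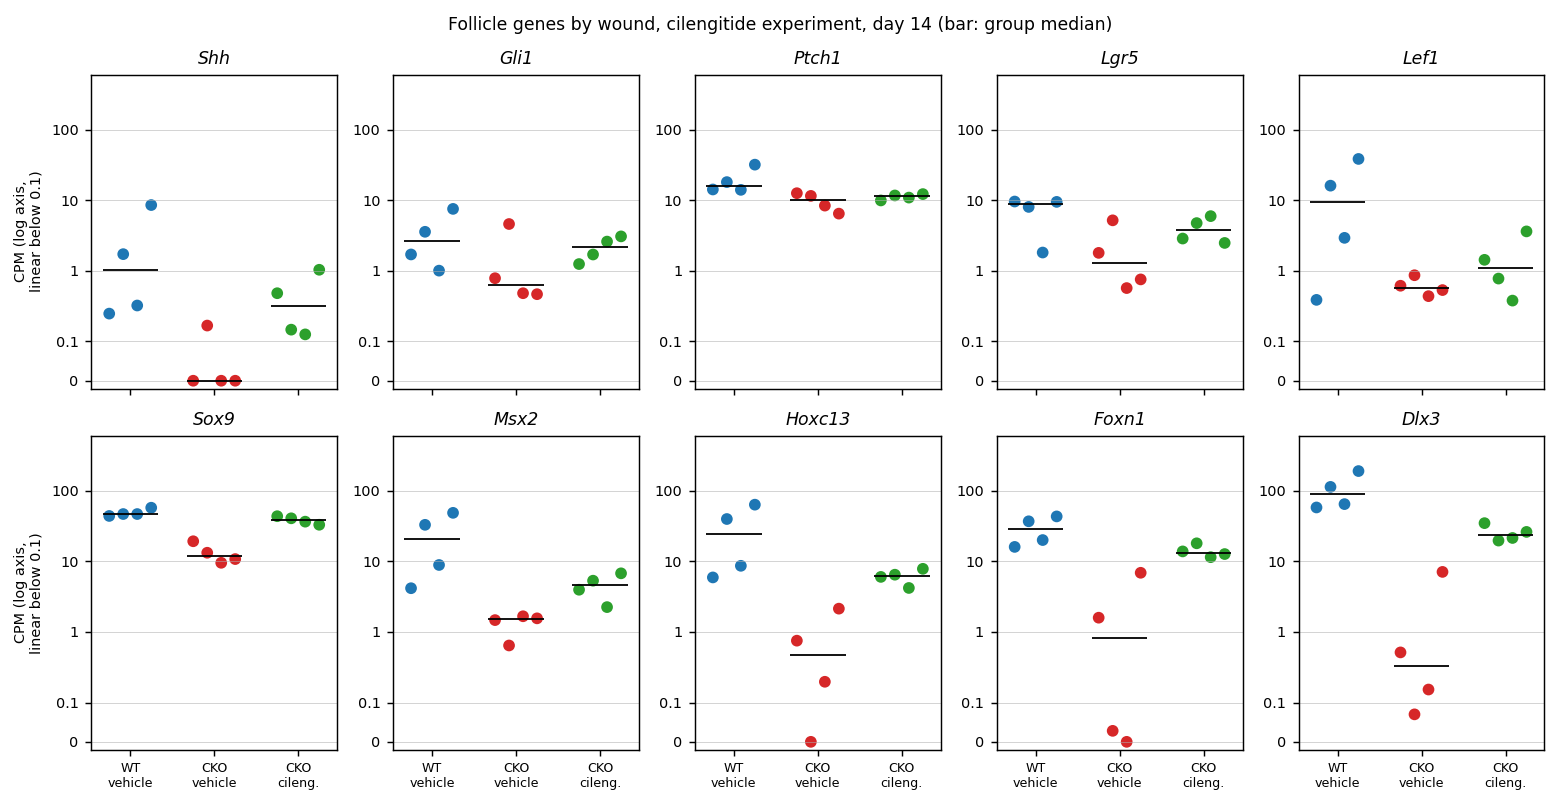
Level of each follicle gene (CPM, log axis that is linear below 0.1) in the 4 wounds of each group of the cilengitide experiment, with group medians as bars. Sox9, Msx2, Hoxc13, Foxn1 and Dlx3 lie above the vehicle wounds in all 4 cilengitide wounds, and Dlx3, Ptch1 and Sox9 lie below all 4 WT wounds.

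**Figure D3:**
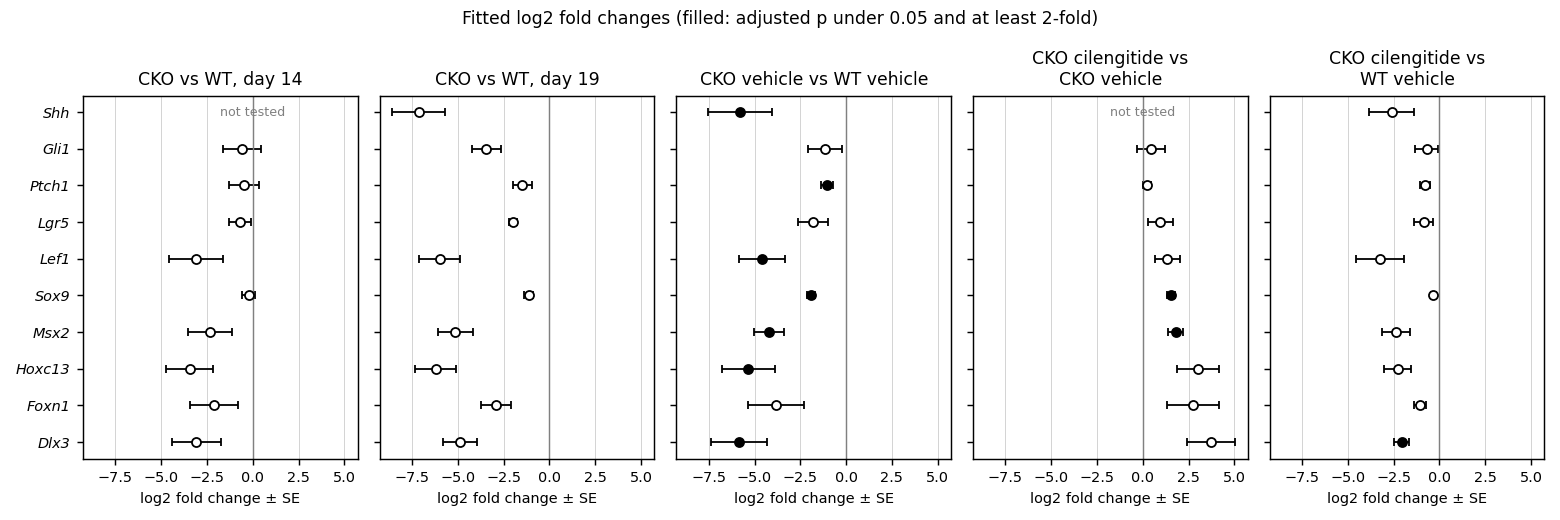
Fitted log2 fold change of each follicle gene with its standard error in 5 comparisons, 1 panel each. Filled points were called, which held for 7 genes in Col5a1CKO against WT with vehicle, 2 with cilengitide against vehicle, 1 with cilengitide against WT, and none at day 14 or day 19 of the time course. Shh had too few counts to be tested in 2 panels, and CKO stands for Col5a1CKO.

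Wounds with much basal keratinocyte RNA were not all high in the follicle genes. The mean of log2(CPM + 1) over the 10 genes was 3.67 to 6.37 in the day 19 WT wounds, at 7397 to 17166 CPM of basal keratinocyte genes, and 2.01 to 2.07 in the day 19 Col5a1CKO wounds at 5110 to 10434 CPM. It was 2.63 to 3.05 in the cilengitide wounds and 3.02 to 5.06 in WT wounds with vehicle, so that these groups overlapped. WT wounds with vehicle fell apart in the follicle genes but not in basal keratinocyte genes. Wound 4 was the highest in 9 members, and Lef1 differed 98.8-fold between the highest and the lowest of the 4 wounds, Shh 34.4-fold and Sox9 1.31-fold. Summed hair shaft genes of WT wounds 1 to 4 were 693, 11260, 1475 and 14366 CPM, in the same order as their Hoxc13, Msx2 and Lef1.

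**Figure D4:**
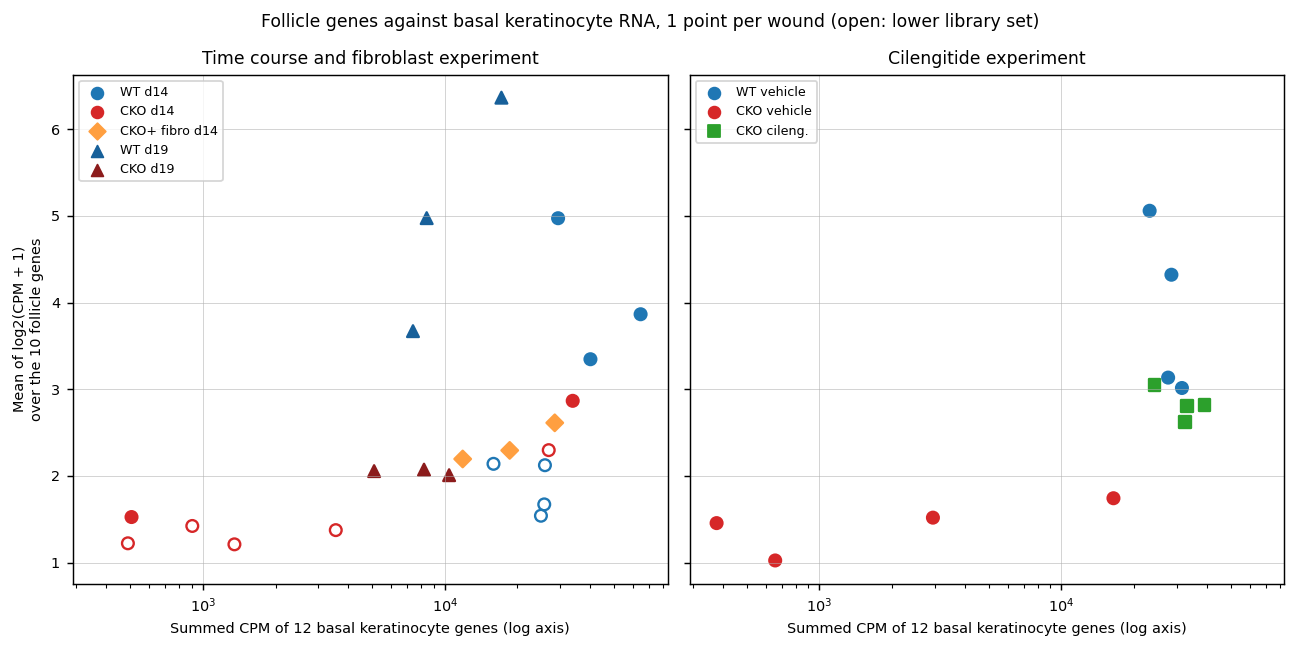
Mean of log2(CPM + 1) over the 10 follicle genes against the summed CPM of 12 basal keratinocyte genes (log axis), 1 point per wound, for the time course and fibroblast experiment and for the cilengitide experiment. Day 19 WT wounds reach 3.67 to 6.37 while day 19 Col5a1CKO wounds stay at 2.01 to 2.07, with overlapping summed basal levels.

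The genes whose levels most resembled Shh across wounds were Slc45a2 (Pearson's r 0.993 over the 23 wounds of the first table and 0.977 over the 12 of the other), Mc1r (0.985 and 0.965), Oca2 (0.992 and 0.957), Slc24a5 (0.955 and 0.963) and Ptgds (0.978 and 0.945). Slc45a2, Oca2, Mc1r and Slc24a5 are best known from pigment cells, and Ptgds encodes a prostaglandin D2 synthase. Those most like Hoxc13 were Padi3 (0.948 and 0.964), D730001G18Rik (0.945 and 0.982), Krt32 (0.939 and 0.937), Tchh (0.934 and 0.986) and Krt27 (0.930 and 0.946). Krt32 is a hair keratin, Krt27 and Tchh belong to the inner root sheath, and Padi3 modifies trichohyalin. They were ranked among 13793 genes by the lower of both correlations of log2(CPM + 1). Among members, r with Hoxc13 was 0.925 and 0.939 for Dlx3, 0.901 and 0.848 for Lef1, 0.898 and 0.823 for Shh, and 0.341 and 0.591 for Lgr5. These correlations are descriptions, since the wounds share group, library set and keratinocyte content.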

How the data were processed

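RNA of skin wounds was sequenced on strand-specific libraries as 50 bp single-end reads. The authors deposited raw counts per gene, made per the study's methods with Hisat2 alignment to NCBI37/mm9 and SeqMonk over RefSeq exons. Whether this also holds for the cilengitide table is not given in the sources used here. Where a symbol had several rows the one with the largest total was kept, and 30 rows without a gene name in the first table (at most 0.0694% of a sample's counts) and 1 in the other (at most 0.0002%) were left out. Wounds were grouped by title, source and treatment labels. Each comparison was fitted on its own groups with edgeR 4.0.16 in R 4.3.3 (filterByExpr at a count minimum of 10, TMM, robust quasi-likelihood test), with Benjamini-Hochberg adjustment over all genes, and the code was tested on simulated counts. DESeq2 1.42.0, other scalings, covariates, library sets and left-out wounds were alternatives. CPM of a table use TMM factors over all its wounds, and CPM per kb divide by RefSeq-matched transcript length. Beside the members, the genes named are the most changed called ones of each pathway or marker list, at most 3 a direction, and the 5 most like Shh and Hoxc13. Members and lists were chosen with earlier results of these data known. One result on a marker gene is not reported here.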

Additional observations from a re-analysis of the deposited data

Results flagged for a closer look

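Within groups of 4 to 7 wounds, 5 values stood far from the others by Dixon's criterion on log2(CPM + 1), among 50 combinations of member and group tested, of which chance would flag about 1 in 20. Col5a1CKO wound g of day 14 had 47.3 CPM of Dlx3 where the other 6 had 0.115 to 3.27 CPM. This wound was also the highest of its group in Gli1, Ptch1, Hoxc13 and Foxn1, and in summed basal keratinocyte genes. WT vehicle wound 3 had 1.82 CPM of Lgr5, below 8.02 to 9.57 CPM in the other 3. Col5a1CKO vehicle wound 2 differed from the other 3 in 3 members. It had 0.168 CPM of Shh where the others had 0, and 4.60 CPM of Gli1 where they had 0.467 to 0.786 CPM. Its Msx2 was 0.643 CPM, below 1.47 to 1.67 CPM. That library had the lowest summed basal keratinocyte level of the cilengitide table, 375.7 CPM, and neither Xist nor Y-linked RNA, and the part of either in these values was not tested.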

How the results depend on the processing

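Counts of called members moved with the model more than with scaling. The direction of single members, here and in the sign changes below, was not compared for fibroblasts against WT or between the Col5a1CKO days. In the other comparisons no member changed direction under RLE or total-count scaling. Total counts shifted the median of all genes to 0.43 between the WT days and to -0.39 between genotypes at day 19. At day 14, 0 called members became 3 with DESeq2, 2 with all groups in 1 fit, and 1 with the library set as a covariate or in the lower set alone. All groups in 1 fit called 906 of 16044 genes lower there. DESeq2 called 9 members at day 19, 1 with fibroblasts against WT, 4 and 6 with cilengitide against vehicle and against WT, and 43 genes for the difference between days. With fibroblasts against WT it called 1189 of 15742 genes lower. Fitting all groups together called 1 member with fibroblasts against WT (970 of 16044 genes lower) and 0 with cilengitide against WT (173 of 15915 genes lower). The upper set alone called 7 with fibroblasts against WT and 2 between the WT days. With basal keratinocyte level as a covariate 3 members were called with vehicle, 0 with cilengitide in either comparison, and 8 between the WT days. A 3-fold threshold left 1 with cilengitide against vehicle, where 691 of 15563 genes were called higher. Leaving out 1 wound gave 0 to 2 called members at day 14, 0 to 9 at day 19, 4 to 9 with vehicle, 1 to 5 and 0 to 4 with cilengitide against vehicle and WT, 0 to 1 between the WT days, and 0 in the other 3 comparisons. The letters of the first table were not taken as pairs, and correlations of same-letter deviations cannot settle whether they are. These ran from -0.461 to 0.572 at day 14 (mean 0.186) and from -0.434 to -0.317 at day 19 (mean -0.391). Their mean was 0.103 with fibroblasts against none and 0.236 against WT. Between the days it was 0.207 in WT and -0.161 in Col5a1CKO wounds. With the letter as a replicate block, 1 member was called lower at day 14, where 567 of 14367 genes were. Called higher were 1 member with fibroblasts against none (1432 of 15659 genes), 5 between the WT days (890 of 15180 genes) and 1 between the Col5a1CKO days (915 of 15327 genes). Under this block Ptch1 at day 14 turned to 0.46. Other log2 fold changes at day 14 that turned sign were Gli1 (0.092 with the basal covariate, 0.32 in the lower set), Ptch1 (0.34 with the basal covariate, 0.38 with the set covariate, 1.03 in the lower set), Lef1 (1.13 with the set covariate) and Sox9 (0.19, 0.063 and 0.59 likewise). With fibroblasts against none, the basal covariate turned Ptch1 (-0.10), Sox9 (-0.057) and Msx2 (-0.20), and the upper set turned Ptch1 (-0.16), Msx2 (-1.06), Hoxc13 (-0.11), Foxn1 (-0.21) and Dlx3 (-0.42). Foxn1 turned to -0.60 with cilengitide against vehicle under the basal covariate and to -0.84 between the WT days in the upper set, where Sox9 was -0.25. Leaving out 1 wound turned 5: Ptch1 at day 14 (-0.72 to 0.029), Sox9 (-0.058 to 0.40) and Msx2 (-0.53 to 0.64) with fibroblasts against none, Gli1 with cilengitide against WT (-0.98 to 0.051) and Foxn1 between the WT days (-0.77 to 0.67). None of these turned values was called, and the causes were not tested. Over all genes, DESeq2 called 1572 higher and 920 lower at day 14 (edgeR 800 and 390), 708 and 782 at day 19 (edgeR 3 and 0), and 9 and 10 with fibroblasts against none (edgeR 0 and 0). Depth limits Shh most, which had 0 to 12 counts per group in Col5a1CKO wounds without cilengitide.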

Other observations

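Of 29 tested genes of BMP, FGF and Eda signalling in the follicle, edgeR called 6 higher in Col5a1CKO wounds with vehicle and 6 higher in WT wounds, where 17.5% and 13.4% of all genes were called, and the median log2 fold change of the list was -0.07. Grem1, a secreted BMP antagonist, spanned 56.9 to 354 CPM in Col5a1CKO and 0.952 to 7.99 CPM in WT wounds, and Fgf7, a fibroblast-made growth factor for keratinocytes, 33.6 to 151 CPM and 2.56 to 3.63 CPM. Fgf22 was 0 to 0.178 CPM against 7.85 to 15.9 CPM, and Edaradd, the adaptor of the ectodysplasin receptor, 0.417 to 1.27 CPM against 15.3 to 28.0 CPM.

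Of 12 sebaceous gland genes tested with vehicle 9 were called lower and 1, Soat1, higher, with the wax synthase Awat1 at 0.034 to 0.293 CPM in Col5a1CKO and 8.26 to 29.7 CPM in WT wounds. Of 10 bulge and upper follicle genes 5 were called lower, among them Krt15 (0.657 to 15.4 CPM against 362 to 1084 CPM), while 3 had positive values and 0 were called higher. The summed level of these 10 genes was 6444 to 20253 CPM in Col5a1CKO and 3864 to 8185 CPM in WT wounds, so the groups overlapped. A sum is weighted to the most abundant genes, and 7 of the 10 had negative log2 fold changes. The sum therefore does not show that bulge RNA was higher in Col5a1CKO wounds. Which cells made the abundant genes was not tested. With cilengitide 8 of the 12 sebaceous genes and 4 of the 10 bulge genes were called higher than in Col5a1CKO wounds with vehicle. Basal keratinocyte level moved with these groups as given above, and its part in them was not tested.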
